A study of Mus musculus with 10 samples.

Results

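The genes described here are 10 textbook targets of p53, namely Cdkn1a, Mdm2, Bax, Btg2, Gadd45a, Trp53inp1, Phlda3, Bbc3, Tnfrsf10b and Plk2. They were taken by symbol from the array annotation, using probes assigned to a single gene. The annotation gave 1 such probe to each of 9 genes and none to Bax, so 9 of 18012 genes with a tested probe are reported and Bax was not analysed here. The livers came from 10 mice, each measured on its own 1-colour CodeLink oligonucleotide array. Of these, 5 mice received an antisense oligonucleotide (ASO) against miR-122, a microRNA abundant in hepatocytes, at 50 mg/kg by intraperitoneal injection 2 times a week for 4 weeks, and 5 mice were injected with saline alone at the same times. Livers were collected 2 days after the final injection. The ASO was a phosphorothioate with 2′-O-methoxyethyl sugars, and the labels give its recipients as male C57Bl/6 mice. The labels state neither age for any mouse nor sex and strain for the saline mice. The control was saline and no group here received an oligonucleotide of another sequence, so the chemistry of the ASO and the blocking of miR-122 cannot be told apart.

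p53 is a transcription factor that is kept scarce in unstressed cells, because Mdm2 marks it for destruction. DNA damage and other stresses stabilise it, and it then switches on genes that halt the cell cycle, repair DNA or start apoptosis. Its targets include Mdm2 itself, which closes a feedback loop, and in liver they are used as a readout of genotoxic stress. Trp53, the gene of p53, had no tested single-gene probe and was not analysed here. p53 is controlled largely at the level of protein, which these arrays do not measure.

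p53 binds DNA as a tetramer that recognises a pair of half-sites of 10 bases each. Promoter windows from RefSeq (GRCm38.p6), running from 250 bases before each transcript start to 50 after it, were searched for the p53 consensus half-site, which reads the same on both strands. Windows were found for 8 of the 10 genes and not for Trp53inp1 and Tnfrsf10b. At least 1 half-site lay in the windows of 4 of these 8 genes, against 9.55% of 27025 genes with a window. The genes were chosen as textbook p53 targets, so matches to the p53 consensus near them are not independent of that choice. Capitals mark the half-sites.
Cdkn1a, chr17:29090906-29090937, plus strand: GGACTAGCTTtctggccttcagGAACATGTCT
Mdm2, chr10:117710925-117710954, minus strand: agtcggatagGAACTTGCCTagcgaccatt
Gadd45a, chr6:67037428-67037457, minus strand: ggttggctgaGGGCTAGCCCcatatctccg
Bax, chr7:45467080-45467109, minus strand: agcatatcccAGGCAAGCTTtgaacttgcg

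The Cdkn1a window was the 1 member window with 2 half-sites within 13 bases of each other, here 12 bases apart and beginning 73 bases before the start. Such a pair lay in 24 of 32851 windows overall (0.0731%). A match is a description of these letters and not a site shown to be bound, and no match says only that the letters are not in the window.

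Intensities are on a linear scale, and the 10 arrays had medians between 1.03 and 1.05. Across probes the arrays correlated at r = 0.942 to 0.982. Values below 0.192 were raised to that floor before log2 was taken, which affected 1 value of the 9 genes. No value of saline replicate 1 exceeded 542, whereas the maximum of each other array was at least 1198, and no p53 target exceeded 15.3 on any array. All 9 measured hepatocyte markers, Alb among them, lay above the median level of all probes. Of the 9, 0 had an unadjusted limma p under 0.05, against 12.5% of all genes, and 6 were higher in ASO livers. Their summed intensity was lowest in saline replicate 1 (2794). The part of the lower maximum of that array in these differences was not tested. Among the p53 targets, 3, Btg2, Phlda3 and Tnfrsf10b, had a mean level below that median, where a signal close to background cannot be told from a low transcript level without detection flags. In whole liver, fewer cells of a type and less RNA per cell cannot be told apart.

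None of the 9 p53 targets passed the threshold in the ASO group, an adjusted p of 0.05 in limma over all 36088 probes. Of all tested probes, 23 passed (0.0637%), and with 1 probe a gene 16 of 18012 did (0.0888%). The differences (ASO minus saline, log2) were below 0 for 8 genes and above 0 for Cdkn1a, with a median of -0.39. Over all genes 55% of differences were below 0, with a median of -0.04. At an unadjusted p under 0.05 there was 1 gene, Tnfrsf10b, which was lower, against 12.5% of all genes in either direction and 8.26% lower. The ASO and saline livers overlapped in all 9, while 2.68% of all genes separated the groups. A fold of at least 1.5 was measured for Gadd45a and Tnfrsf10b, against 12.9% of all genes.

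**Figure D1:**
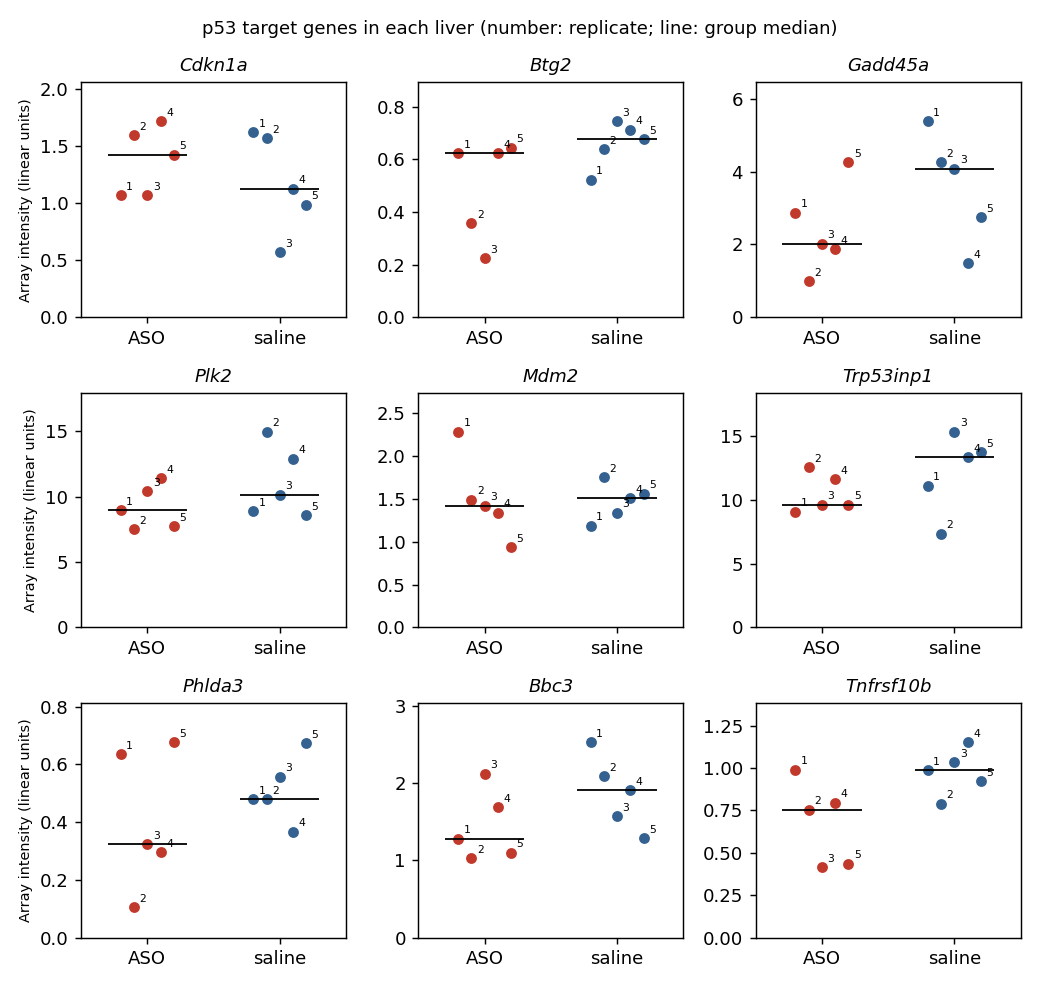
Array intensity (vertical axes, linear units, starting at 0) of the 9 p53 target genes in each liver, with ASO livers at left and saline livers at right of each panel, numbers giving the replicate and lines the group median. The groups overlap in every panel, and the ASO median is the higher one for Cdkn1a only.

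The first group of genes stops or slows the cell cycle. Cdkn1a encodes p21, an inhibitor of cyclin-dependent kinases and the classic p53 target. Its intensity was 1.07, 1.60, 1.07, 1.72 and 1.43 in ASO replicates 1 to 5, against 1.62, 1.57, 0.570, 1.13 and 0.986 in saline replicates 1 to 5. The single low value was that of saline replicate 3, and the other 4 saline livers spanned almost the same range as the ASO livers. The log2 difference was 0.29 ± 0.29 (SE, n = 5 per group, limma adjusted p = 0.730), and it was 0.06 without saline replicate 3 and 0.19 with a pseudocount in place of the floor.

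Btg2, an antiproliferative protein that promotes shortening of mRNA tails, read 0.624, 0.357, 0.223, 0.624 and 0.644 in ASO replicates 1 to 5, against 0.522, 0.638, 0.744, 0.713 and 0.676 in the saline replicates. ASO replicates 2 and 3 lay below every saline liver, and the other 3 ASO livers lay among them. All 5 ASO livers were below the saline median of 0.676. ASO minus saline was -0.52 ± 0.29 on the log2 scale (SE, n = 5 per group, limma adjusted p = 0.538). It was -0.26 without ASO replicate 3 and -0.24 with a pseudocount.

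Gadd45a, a stress sensor that binds cell cycle and repair proteins, read 2.87, 0.989, 2.02, 1.87 and 4.26 in ASO replicates 1 to 5, against 5.38, 4.26, 4.08, 1.48 and 2.75 in the saline replicates. Both groups spread widely, with a highest-to-lowest ratio of 4.31 in ASO livers and 3.64 in saline livers. ASO replicate 2 was the lowest of the 10 livers, and saline replicate 4 was next. The log2 difference of -0.61 ± 0.42 (SE, n = 5 per group, limma adjusted p = 0.610) was the largest in size of the 9 and had the largest SE. It was -0.33 without ASO replicate 2.

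Plk2, a polo-like kinase that acts in centriole duplication and stress checkpoints, read 8.95, 7.49, 10.4, 11.4 and 7.72 in ASO replicates 1 to 5, against 8.88, 15.0, 10.2, 12.9 and 8.56 in the saline replicates. Of the ASO livers, 3 lay inside the range of the saline livers, and replicates 2 and 5 lay below it. On the log2 scale the difference was -0.26 ± 0.21 (SE, n = 5 per group, limma adjusted p = 0.670). It was -0.14 without saline replicate 2, -0.13 under quantile normalization and -0.12 under cyclic loess.

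The second group feeds back on p53 or on survival signals. Mdm2, the ubiquitin ligase that degrades p53, read 2.28, 1.49, 1.42, 1.34 and 0.935 in ASO replicates 1 to 5, against 1.19, 1.75, 1.34, 1.51 and 1.56 in the saline replicates. The ASO livers held both the highest and the lowest value, replicates 1 and 5. The log2 difference was -0.02 ± 0.23 (SE, n = 5 per group, limma adjusted p = 0.982), and its sign turned under quantile normalization (0.01), cyclic loess (0.01) and without 4 single livers.

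Trp53inp1, a stress protein that supports p53 activity and autophagy, read 9.04, 12.5, 9.61, 11.6 and 9.61 in ASO replicates 1 to 5, against 11.1, 7.33, 15.3, 13.3 and 13.7 in the saline replicates. All ASO livers were below the saline median of 13.3, yet saline replicate 2 was lower than each of them. For Trp53inp1 the log2 difference was -0.18 ± 0.22 (SE, n = 5 per group, limma adjusted p = 0.786). It was -0.35 without saline replicate 2, -0.09 without saline replicate 3, -0.06 under quantile normalization and -0.05 under cyclic loess.

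Phlda3, which competes with Akt for membrane lipids and so restrains that survival kinase, read 0.634, 0.106, 0.324, 0.296 and 0.677 in ASO replicates 1 to 5, against 0.480, 0.480, 0.557, 0.367 and 0.674 in the saline replicates. ASO livers 2, 3 and 4 lay below every saline liver and ASO livers 1 and 5 near the top. The value of ASO replicate 2 was the 1 value below the floor. The log2 difference was -0.40 ± 0.34 (SE, n = 5 per group, limma adjusted p = 0.681). It was -0.57 with no floor, -0.15 without ASO replicate 2, -0.61 without ASO replicate 5 and -0.19 with a pseudocount.

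The third group promotes cell death. Bbc3 encodes PUMA, a BH3-only protein that releases the mitochondrial route to apoptosis. It read 1.28, 1.03, 2.12, 1.69 and 1.10 in ASO replicates 1 to 5, against 2.53, 2.09, 1.57, 1.91 and 1.28 in the saline replicates. ASO replicates 2 and 5 lay below every saline liver, and ASO replicate 1 was level with the lowest of them to within rounding. This gave a log2 difference of -0.39 ± 0.25 (SE, n = 5 per group, limma adjusted p = 0.580).

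Tnfrsf10b, the mouse death receptor for the ligand TRAIL, read 0.989, 0.754, 0.417, 0.796 and 0.436 in ASO replicates 1 to 5, against 0.987, 0.790, 1.03, 1.15 and 0.921 in the saline replicates. ASO replicates 3 and 5 were the lowest livers, ASO replicate 2 lay just below the lowest saline liver, and ASO replicate 1 matched the saline median. The log2 difference was -0.60 ± 0.26 (SE, n = 5 per group, limma unadjusted p = 0.0379, adjusted p = 0.415). Its unadjusted p was above 0.05 with array weights (0.0542) and without each of 6 single livers, where the highest was 0.0972 without ASO replicate 3. With a pseudocount the difference was -0.35.

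**Figure D2:**
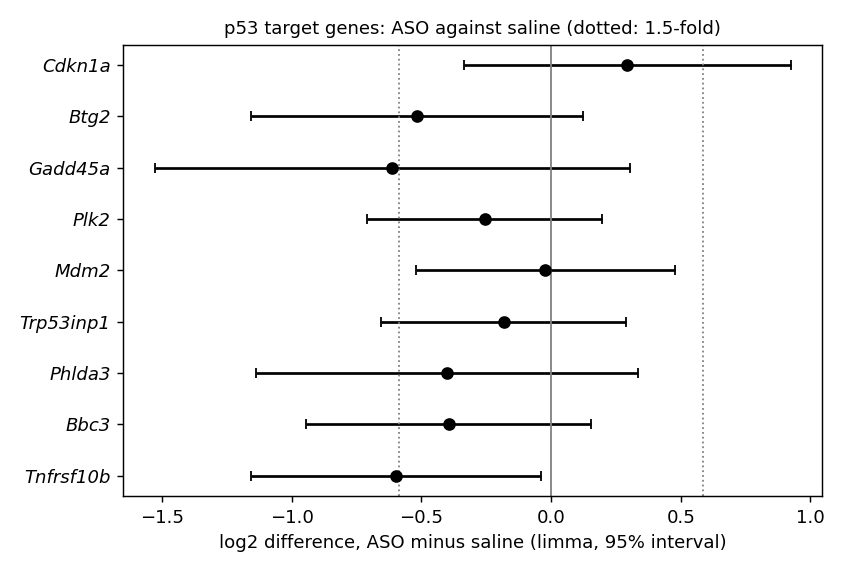
Log2 difference (horizontal axis, ASO minus saline) of each p53 target gene (rows), with points for the limma estimate, bars for its 95% interval and dotted lines at 1.5-fold in either direction. The interval leaves out 0 for Tnfrsf10b alone, and Cdkn1a is the 1 gene whose interval passes 1.5-fold on the higher side.

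On the log2 scale each interval is symmetric about its estimate. The intervals of the 8 genes with a difference below 0 therefore reached further on the lower side, which repeats the count of signs. The 95% interval of the fold (ASO over saline, before any adjustment for the number of probes) ended below 1.5-fold for 8 of the 9 genes. Its upper end was 1.90 for Cdkn1a, 1.39 for Mdm2, 1.26 for Phlda3, 1.23 for Gadd45a and 1.11 for Bbc3. On the lower side the intervals reached a 1.5-fold decrease for 7 of the 9, with Cdkn1a (lower end 0.793) and Mdm2 (lower end 0.696) the exceptions. The lowest ends were those of Gadd45a (0.347), Tnfrsf10b (0.449) and Btg2 (0.449).

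The 9 genes did not share 1 pattern over the ASO livers. ASO replicate 2 was the lowest of all 10 livers for 4 of them, Gadd45a, Phlda3, Bbc3 and Plk2, yet it was among the highest 3 for Cdkn1a. This liver was the lowest for 16.0% of the 14978 genes with a single lowest liver, more than any other liver. ASO replicate 3 was lowest for Btg2 and Tnfrsf10b, and ASO replicate 1 was highest for Mdm2. Of the saline livers, replicate 1 was highest for Gadd45a and Bbc3 and replicate 3 for Trp53inp1 and Btg2. The SD of log2 levels was larger among ASO than saline livers for 6 of the 9 genes (66.7%), close to the 61.6% of all genes. It was 0.68 in ASO livers and 0.20 in saline livers for Btg2, and 0.56 in ASO livers and 0.20 in saline livers for Tnfrsf10b. The saline SD was the larger one for Cdkn1a (0.32 in ASO livers, 0.61 in saline livers), Trp53inp1 (0.20 and 0.42) and Plk2 (0.26 and 0.35).

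**Figure D3:**
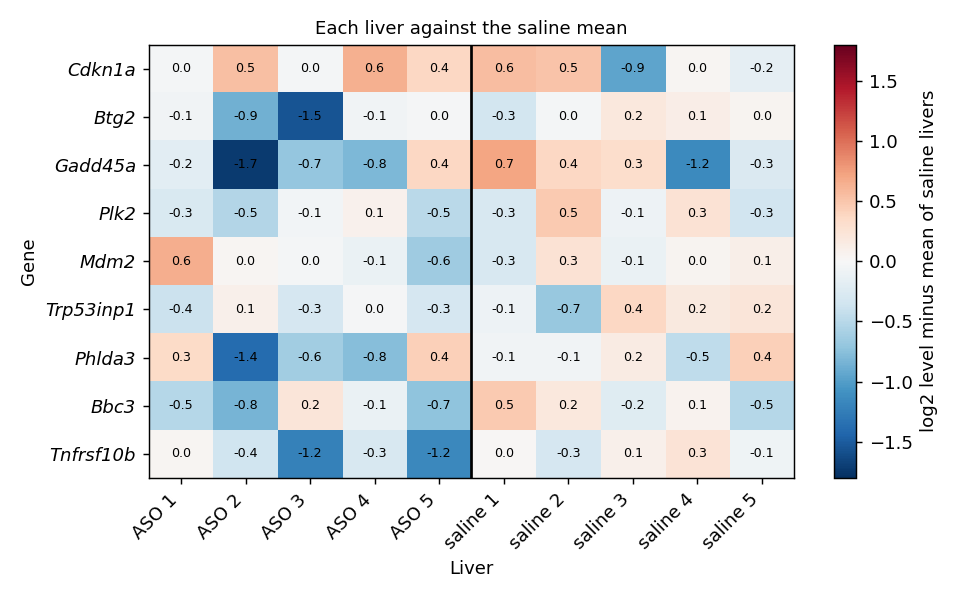
Log2 level of each p53 target gene (rows) in each liver (columns, ASO left of the line and saline right of it) minus the mean of the saline livers, printed in each cell and coloured blue for lower and red for higher. The lowest cells of ASO replicate 2 are Gadd45a and Phlda3 and those of ASO replicate 3 are Btg2 and Tnfrsf10b, so the low values fall in different livers for different genes.

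Levels of other cell types varied between the livers as well. Of 7 stellate cell markers, 6 had a difference below 0 (85.7%, against 55% of all genes), with a median of -0.25. None of these 7 had an unadjusted limma p under 0.05. The summed intensity of 8 Kupffer cell markers ran from 48.8 to 277 in ASO livers and from 115 to 276 in saline livers, with ASO replicate 2 lowest. For 7 lymphocyte markers it ran from 6.10 to 10.1 in ASO livers and from 9.23 to 13.7 in saline livers, and 2 of these 7 genes had an unadjusted limma p under 0.05, both lower, against 8.26% of all genes. The groups did not overlap for 1 of them, the B cell gene Ms4a1, which was lower, against 1.72% of all genes. At an unadjusted limma p under 0.05 the endothelial marker Cdh5 was higher, 1 of 8 measured (12.5%), against 4.21% of all genes. Of these 8 markers, 6 had a difference above 0 and 2 below, with a median of 0.16. The bile duct marker Krt19 was lower, 1 of 5 measured (20%), against 8.26% of all genes. The bile duct list as a whole did not share this direction, with 3 markers above 0, 2 below and a median of 0.09. ASO replicate 2, the lowest liver for 4 of the p53 targets, also had the lowest summed intensity of endothelial (49.7), stellate cell (67.0) and red blood cell (30.7) markers and the highest of hepatocyte (7463) and bile duct (8.58) markers. Without this liver 8 of the 9 p53 targets were below 0, with a median of -0.25, against -0.39 with all livers. None of these markers was at the floor on all arrays, but 5 of the 7 lymphocyte markers had a mean level below the median of all probes. Ms4a1 and Klrb1c, the lymphocyte markers with an unadjusted limma p under 0.05, were among them, and Cdh5 also lay below that median. For such dim genes a signal close to background cannot be told from a low transcript level. The part of these cells in the values of the p53 targets was not tested.

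Further p53 targets, listed from general knowledge with earlier results of these data known, also gave no call. Of 40 genes 35 were measured, 0 passed in limma, 24 had a difference below 0 and 11 above, and the median was -0.21 (-0.12 with a pseudocount). At an unadjusted p under 0.05 there were 8 lower (22.9%) and 2 higher (5.71%), against 8.26% lower and 4.21% higher over all genes, and the groups overlapped in all 35. The 3 with the smallest p were Sulf2, an extracellular sulfatase, at -0.85 ± 0.26 (SE, limma adjusted p = 0.276), the damage recognition gene Ddb2 at -0.81 ± 0.26 (adjusted p = 0.286) and Ei24, a membrane protein of the endoplasmic reticulum, at -0.81 ± 0.27 (adjusted p = 0.295). Ddb2, whose mean level lay below the median of all probes, was -0.36 with a pseudocount.

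Among 20 measured partners and regulators of p53, 0 passed, 11 had a difference above 0 and 9 below, and the median was 0.08. That median ranged from -0.14 to 0.14 over the alternatives and was below 0 without ASO replicate 2 (-0.07), without saline replicate 4 (-0.01) and with dim probes left out (-0.14). At an unadjusted p under 0.05 there were 3 higher (15%) and 1 lower (5%), against 4.21% and 8.26% of all genes. Groups did not overlap for 2 genes, both higher, against 0.96% of all genes. These were Trp53bp1, which encodes the double-strand break adaptor 53BP1, and Usp7, which removes ubiquitin from Mdm2 and p53. The mean level of Trp53bp1 lay below the median of all probes, which limits what its difference can show. Trp53bp1 averaged -0.43 ± 0.18 in ASO livers and -1.43 ± 0.48 in saline livers (SD of log2 levels, n = 5 each), which differed by 0.996 ± 0.231 on the log2 scale (SE, limma adjusted p = 0.177) and by 0.50 with a pseudocount. Usp7 averaged 0.51 ± 0.22 in ASO livers and -0.04 ± 0.30 in saline livers, a log2 difference of 0.55 ± 0.19 (limma adjusted p = 0.326). Trp53inp2, a relative of Trp53inp1 that acts in autophagy, had 0.69 ± 0.23 (adjusted p = 0.294), while Trp53inp1 stood at -0.18; the difference between them was not tested.

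Of 12 measured relatives of the 9 genes, 0 passed and 8 were below 0, with a median of -0.16 (-0.10 under quantile normalization, -0.25 with array weights, -0.27 without ASO replicate 2 and -0.09 without saline replicate 2). At an unadjusted p under 0.05 there were 2 lower (16.7%) and 0 higher, against 8.26% and 4.21% of all genes. Gadd45g, a stress gene of the same family as Gadd45a, had -0.94 ± 0.29 (SE, limma adjusted p = 0.277), Btg1, a relative of Btg2, -0.75 ± 0.29 (adjusted p = 0.378) and Tob1, of the same antiproliferative family, -0.35 ± 0.19 (adjusted p = 0.516). Tob1 was -0.22 under both quantile normalization and cyclic loess. The 12 measured genes of the BCL-2 family, which set the threshold for mitochondrial apoptosis, had a median of -0.13 with 8 below 0 and 0 passing (-0.05 under quantile normalization, and -0.07 to -0.08 without ASO replicate 1 or saline replicates 1, 2 and 4). Bik was lower and Bcl2 higher at an unadjusted p under 0.05, 8.33% of the list in each direction, against 8.26% lower and 4.21% higher over all genes. The groups did not overlap for Bcl2, against 0.96% of all genes higher. Bcl2 had values in 5 ASO and only 4 saline livers, as had Bok, and the mean level of Bcl2 lay below the median of all probes. The death promoter Bik had -0.76 ± 0.24 (adjusted p = 0.279), the survival gene Bcl2 0.55 ± 0.22 (adjusted p = 0.381, 0.35 with a pseudocount) and Bok -0.43 ± 0.25 (adjusted p = 0.547, -0.26 without ASO replicate 2). Pmaip1, which encodes the BH3-only protein NOXA, is counted among both the further p53 targets and the BCL-2 family.

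p21 acts on the cell cycle by blocking cyclin-dependent kinases, which in turn lowers genes of mitosis. Of 11 measured genes of that kind 0 passed and 9 had a difference above 0, with a median of 0.21 (0.06 to 0.32 over the alternatives). The proliferation marker Mki67 averaged 1.67 ± 0.51 in ASO livers and 0.92 ± 0.24 in saline livers (SD of log2 levels, n = 5 each), a log2 difference of 0.76 ± 0.25 (SE, limma adjusted p = 0.292). Ccna2, cyclin A2, had 0.62 ± 0.24 (adjusted p = 0.373, 0.38 with a pseudocount) and Ccnb2, cyclin B2, 0.56 ± 0.34 (adjusted p = 0.565, 0.37 without ASO replicate 4). The mean level of Ccna2 lay below the median of all probes. At an unadjusted p under 0.05 Mki67 and Ccna2 were higher and 0 genes lower, against 4.21% and 8.26% of all genes.

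Among the 11 cyclins, kinases and partners that p21 and the retinoblastoma pathway act on, 0 passed and 8 had a difference above 0, with a median of 0.09 (0.01 to 0.21 over the alternatives). At an unadjusted p under 0.05 there was 1 gene, which was lower (9.09% of the list, against 8.26% of all genes). This was Cdk6, a kinase of early G1 phase, with -0.63 ± 0.24 (SE, limma adjusted p = 0.375), and the next were the retinoblastoma gene Rb1 at 0.30 ± 0.20 (adjusted p = 0.604) and Cdk4 at -0.41 ± 0.33 (adjusted p = 0.668). Cdk4 was -0.22 without ASO replicate 2 or saline replicate 1 and -0.69 without ASO replicate 5.

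**Figure D4:**
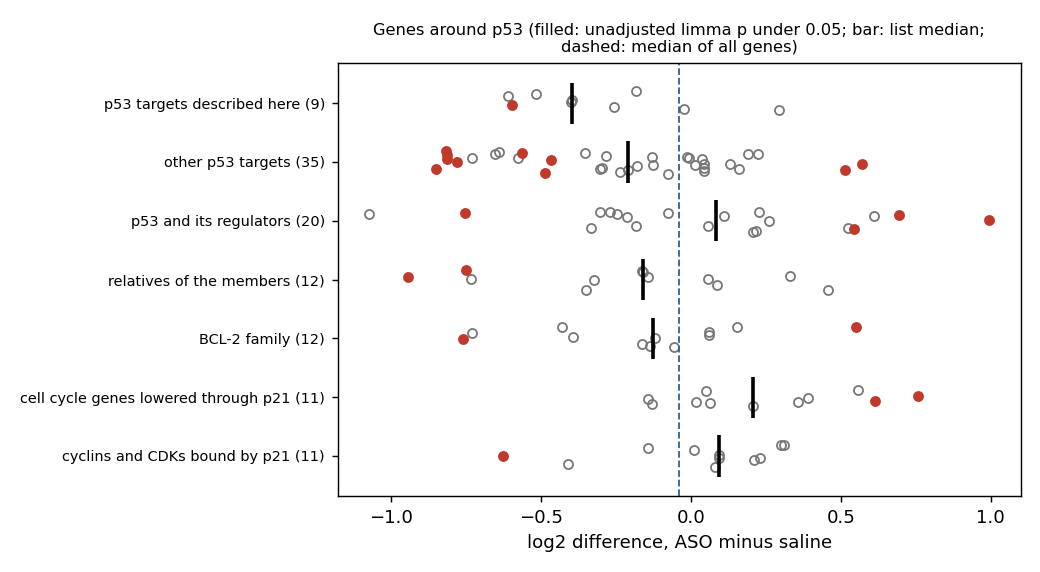
Log2 difference (horizontal axis, ASO minus saline) of each measured gene in 7 lists around p53 (rows, number of measured genes in brackets), with filled points at an unadjusted limma p under 0.05, bars at the list median and a dashed line at the median of all genes. The median of the 9 p53 targets lies at -0.39 and that of the further p53 targets at -0.21, and no gene shown passed the adjusted threshold.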

How the data were processed

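The authors deposited 1 table of array intensities, with 36227 probes and a column for each of 10 livers. Its scale is linear, and the sources used here do not state the scanner software, the background subtraction or the scaling. No detection flags were used, and the number of arrays limits the precision. Of the probes, 139 had fewer than 3 values in a group and were left out. The 10th percentile of positive values served as a floor before log2 was taken, so differences of probes with values below it can be understated. Symbols came from the platform annotation, where 21615 probes had 1 gene, 681 several and 13931 none, and 21487 of the single-gene probes matched a RefSeq table by Entrez ID. A linear model with the group as its only term was fitted to each probe in R 4.3.3 with limma 3.58.1 and moderated with eBayes. Its two-sided p-values were adjusted by Benjamini-Hochberg across the 36088 tested probes. The labels name individual livers and give no batch. The fit was tested on simulated data.

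All p53 targets are given. From each other list the 3 measured genes with the smallest p were named, each by its brightest probe, and Pmaip1, Trp53 and Bax were named outside this rule. The members and lists were chosen with earlier results of these data known. The fit was repeated after quantile or cyclic loess normalization, without a floor, with a pseudocount of 0.5, with dim probes (mean at or below the median of all) left out, with a trended robust eBayes, with weighted arrays, and without each array in turn.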

Additional observations from a re-analysis of the deposited data

How the results depend on the processing

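The count of p53 targets past the adjusted threshold stayed at 0 under all 17 alternatives, with adjusted p of 0.272 or more for every gene in each of them. The count of all probes past it was 23 and became 39 under cyclic loess, 7 with no floor, 43 with a pseudocount, 73 with only probes above the median level, 42 with trend and robust, and 0 to 16 when single arrays were left out. The 8 differences below 0 became 5 with only probes above the median level, where 6 genes were tested, and the count at an unadjusted p under 0.05, 1 as reported, was 0 there and with array weights, and 0 or 1 without single arrays (0 without ASO replicate 5 or saline replicates 1, 3 and 5). That 1 gene was Tnfrsf10b except without ASO replicate 3, where it was Bbc3 (unadjusted p = 0.0433), and without saline replicate 4, where it was Gadd45a (0.0410). Mdm2 (-0.191 to 0.131 when single arrays were left out) turned to 0.0118 under quantile normalization, 0.0113 under cyclic loess, and 0.00147, 0.131, 0.0436 and 0.00247 without ASO replicates 4 and 5 and saline replicates 2 and 5. The cause was not tested. The other 8 genes kept their sign under every alternative in which they were tested. The median of the p53 targets was -0.24 with a pseudocount, -0.22 with only probes above the median level and -0.25 without ASO replicate 2. Each gene had 1 probe, so averaging probes gave no other value. No paired analysis was possible because the groups were separate mice and the labels give no pairing. The replicate numbers used here follow the order of the sample titles, since the labels give none. Btg2, Phlda3 and Tnfrsf10b have mean levels below the median of all probes, which limits what their differences can show.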
